A study of Rattus norvegicus with 8 samples.

Results

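The neuronal intermediate filament genes are Nefl, Nefm, Nefh, Ina and Prph, which encode the light, medium and heavy neurofilament proteins, alpha-internexin and peripherin. Every non-control spot that the array files name as 1 of these 5 genes was taken. This gave 5 probes on 14 spots, of 30367 probes on 42877 non-control spots in all. Nefm is represented by 1 probe on 10 spots and each of the other genes by 1 probe on 1 spot. Neurofilaments are the main filaments of large axons and help to set axon calibre. The light chain forms the core of the filament together with alpha-internexin, while the medium and heavy chains carry long tails that kinases phosphorylate. Peripherin is best known from sensory, autonomic and motor neurons and is made by few neurons of the brain.

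The animals were 4 female Sprague Dawley rats in estrus and 4 male rats of the same strain, all 3 to 4 months old. Total RNA of each hypothalamus was hybridized to 1 of 4 Agilent arrays that share a slide and read 2 colours, and the study asked how the cytoskeletal transcriptome differs between the sexes. Each array held 1 female and 1 male in opposite dyes, with the same replicate number for both, and females were in Cy3 on arrays 1 and 3 and in Cy5 on arrays 2 and 4. No female outside estrus was measured, so the sex of an animal and the stage of its cycle cannot be told apart. In whole hypothalamus, fewer cells of a type and less RNA per cell cannot be told apart either.

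Signal and tissue markers were as follows. Median intensity above local background was 502 to 530 units in Cy3 samples and 148 to 272 in Cy5 samples, and the number of arrays limits the precision. All 5 probes were well above background in all 8 animals and none was saturated. Hypothalamic markers such as Avp, Oxt and Pomc, which encode secreted neuropeptides, passed the filter on dim probes for 13 of 13 genes. Male 2 stood apart. Its median deviation from the mean of the 8 animals was 1.72 on the log2 scale over 8 measured markers of cortex, hippocampus and striatum, against -0.65 to 0.34 in females and -0.62 to -0.10 in the other males. Over the 13 hypothalamic markers its median deviation was -1.82, against -0.03 to 0.69 in females and -0.04 to 0.69 in the other males. Array 2, which holds it, had a standard deviation of 0.61 over all log2 ratios, against 0.37 to 0.38 on the other arrays. The sex ratios and correlations of the 5 genes are therefore also given without it.

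The 60-base probes are printed below for 3 of the genes, because each gene is read through 1 probe and its letters say which stretch of the transcript was measured. They are given 5′ to 3′ from the array files. Capitals mark the TGA with which the reading frame of the Prph probe, open over its full length before it, ends.
Nefl: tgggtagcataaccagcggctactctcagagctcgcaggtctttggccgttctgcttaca
Nefh: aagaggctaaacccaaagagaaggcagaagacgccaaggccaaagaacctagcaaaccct
Prph: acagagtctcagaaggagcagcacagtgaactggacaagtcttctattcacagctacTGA

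On the rn4 build, the Nefl probe (A_44_P477889) lies at chr15:47638898-47638957 on the plus strand and has a GC content of 55.0%. The Nefm probe (A_42_P752336) lies 59688 bases further along the same chromosome, at chr15:47698645-47698704 on the minus strand. Between these 2 genes the current rat annotation (GRCr8) lists 1 gene, and 0 protein-coding genes. The Nefh probe (A_44_P402445) lies at chr14:85595648-85595707 on the minus strand. The Ina probe (A_44_P421375) lies at chr1:252340311-252340370 on the plus strand. It has stop codons in all 3 frames, whereas the other 4 probes have at least 1 open frame. The Prph probe (A_64_P139802) lies at chr7:137839568-137839627 on the plus strand. The longest run of bases shared by any pair of the 5 probes was 5 to 7 bases, so the paralogs are read by distinct sequences.

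Ina was the member with the steadiest sex difference. Its normalized log2 level was 12.92, 13.28, 12.94 and 13.08 in females 1 to 4, against 12.64, 12.86, 12.56 and 12.58 in males 1 to 4. After removal of the gene-specific dye effect it averaged 13.05 ± 0.13 in females and 12.66 ± 0.16 in males (SD, n = 4 each). The lowest female, at 12.95, lay above the highest male, at 12.89, so the sexes did not overlap. The within-array log2 ratio of female over male was 0.28, 0.42, 0.38 and 0.50 on arrays 1 to 4. The fitted log2 ratio was 0.39 ± 0.06 (SE, 95% confidence interval 0.22 to 0.57), which is 1.31-fold.

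For Ina the unadjusted p in limma was 0.00298, rank 46 of the 21995 probes tested, and the adjusted p was 0.555. It was the only member of 5 with an unadjusted p under 0.05, a rate of 8.5% over all probes, or 4.98% in the direction of higher in females. It was also the only one of the 5 above 0 on 4 of 4 arrays, as 5.28% of all probes were, and the only one whose 4 females all lay above the 4 males, as for 3.96% of all probes. Of the 5 fitted ratios 2 were above 0, against 56.1% of all probes. By the adjusted p, 0 of 5 members and 0% of all probes passed the threshold of 0.05. The lowest adjusted p of any probe was also 0.555. Ina moved little without male 2. Leaving out array 2 gave 0.41 ± 0.07. With any array left out, 1 dye orientation rests on a single array, which the dye term fits exactly. The residual then comes from the pair of arrays of the other orientation, and limma draws its variance towards that of all probes. The SE thus assumes that the lone array varies like the others. Leaving out male 2 alone needed a fit of the separate channels without the array as block, and gave 0.49 ± 0.08 with an unadjusted p of 7.27e-04 and an adjusted p of 0.434 in limma. The same kind of fit with all 8 animals gave 0.39 ± 0.11 with an unadjusted p of 0.00811. In the fit without male 2, 1 of 5 members and 10.2% of all probes had an unadjusted p under 0.05. The lowest dye-corrected level was then 12.997 in females, against 12.56, 12.48 and 12.66 in males 1, 3 and 4.

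**Figure D1:**
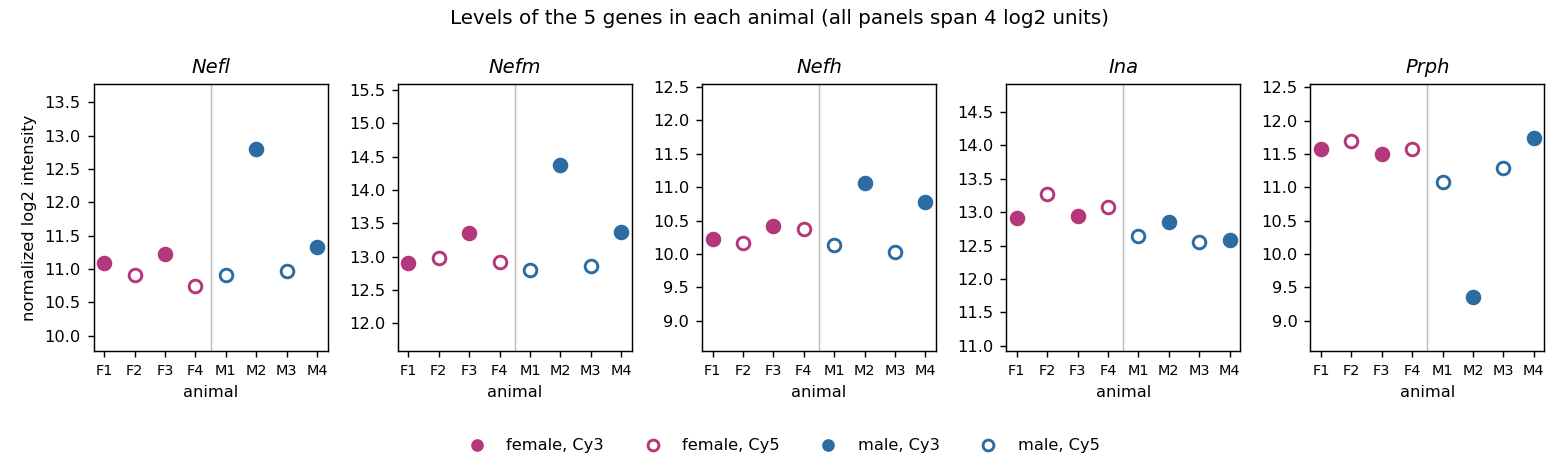
Normalized log2 intensity of each gene in each animal, females F1 to F4 left of males M1 to M4, with filled points for Cy3 and open points for Cy5; each panel spans the same number of log2 units but has its own range. Male 2 is the highest animal for Nefl (12.80), Nefm (14.38) and Nefh (11.06) and the lowest for Prph (9.36), while for Ina the 4 females lie above the 4 males, with the lowest female at 12.92 and the highest male at 12.86.

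Nefl, which encodes the core subunit of neurofilaments, had a log2 level of 11.09, 10.91, 11.22 and 10.74 in females, against 10.91, 12.80, 10.97 and 11.33 in males. Above local background this was an intensity of 2943, 948, 3685 and 844 units in females, against 1578, 11881, 1329 and 3728 units in males. Male 2 was the highest animal on both scales. After dye correction it stood at 12.43, males 1 and 4 lay within the female range of 10.73 to 11.27, and male 3 was at 11.34. The dye-corrected mean was 10.99 ± 0.24 in females and 11.50 ± 0.64 in males (SD, n = 4 each). The fitted log2 ratio of female over male was -0.51 ± 0.23 (SE, 95% confidence interval -1.14 to 0.12), with an adjusted p of 0.555 in limma. The ratio was above 0 on arrays 1 and 3, at 0.19 and 0.25, and below 0 on arrays 2 and 4, at -1.89 and -0.59.

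Nefm, which encodes the medium chain, had a log2 level of 12.90, 12.99, 13.35 and 12.93 in females, against 12.79, 14.38, 12.86 and 13.37 in males. Again male 2 was highest. After dye correction males 1, 3 and 4, at 13.10, 13.17 and 13.07, lay within the female range of 12.60 to 13.29. The fitted log2 ratio was -0.31 ± 0.18 (SE, 95% confidence interval -0.81 to 0.19, adjusted p 0.573 in limma), with array ratios of 0.11, -1.39, 0.49 and -0.45. Nefh, which encodes the heavy chain, had a log2 level of 10.23, 10.16, 10.42 and 10.38 in females, against 10.13, 11.06, 10.03 and 10.77 in males. Males 2 and 4, in Cy3, were above all females, and males 1 and 3, in Cy5, below all of them. After dye correction males 1, 3 and 4, at 10.35, 10.25 and 10.55, lay within the female range of 10.01 to 10.60, and male 2 was at 10.83. The fitted log2 ratio of Nefh was -0.20 ± 0.12 (SE, 95% confidence interval -0.52 to 0.11, adjusted p 0.569 in limma), with array ratios of 0.09, -0.90, 0.39 and -0.40.

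The sign of the ratio thus followed the dye for all 3 neurofilament genes, above 0 where the female was in Cy3 and below 0 where she was in Cy5. The fitted dye effect, the amount by which a ratio moves with the dye of the female and positive where a probe is brighter in Cy3, was 0.73 for Nefl, 0.61 for Nefm and 0.44 for Nefh on the log2 scale. It was -0.07 for Ina and -0.37 for Prph. None of the 5 passed (adjusted p 0.0839 to 0.603 in limma), against 12.7% of all probes, and the median size over all probes was 0.17. Array 2, with male 2 in Cy3, contributed the largest ratio in these 3 genes. Without it array 4 is the only array with the female in Cy5, and the dye effect of Nefl was 0.40 and passed, with an adjusted p of 0.0397 in limma, as for 15.7% of all probes.

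Without array 2 the fitted sex ratio was -0.18 ± 0.07 for Nefl, -0.08 ± 0.11 for Nefm and -0.08 ± 0.09 for Nefh (SE, 3 arrays), with adjusted p of 0.599, 0.835 and 0.8 in limma, where 0% of all probes passed. With male 2 alone left out, in the fit without the array as block, it was -0.14 ± 0.07, -0.02 ± 0.13 and -0.07 ± 0.15. In the fit without male 2 the dye-corrected level of Nefl was 10.92, 11.09, 11.04 and 10.92 in females, against 11.08, 11.15 and 11.15 in males 1, 3 and 4. For Nefm these males were at 12.96, 13.02 and 13.21, against 12.74 to 13.19 in females. For Nefh they were at 10.29, 10.18 and 10.62, against 10.07 to 10.53 in females. The female ranges given earlier used the dye effect estimated with male 2 included. The fitted ratios of all 3 neurofilament genes stayed below 0, closer to 0 than with male 2. Leaving out array 4 moved them the other way, with -0.84 ± 0.07 for Nefl, -0.55 for Nefm and -0.33 for Nefh. Array 2, with male 2, is then the only array with the female in Cy5. Its deviation cannot enter the residual, which comes from arrays 1 and 3 alone. The SE rests on that residual and on the variance that limma shares over all probes. In limma the adjusted p of Nefl was 0.0316 in that fit, where 6.78% of all probes passed.

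**Figure D2:**
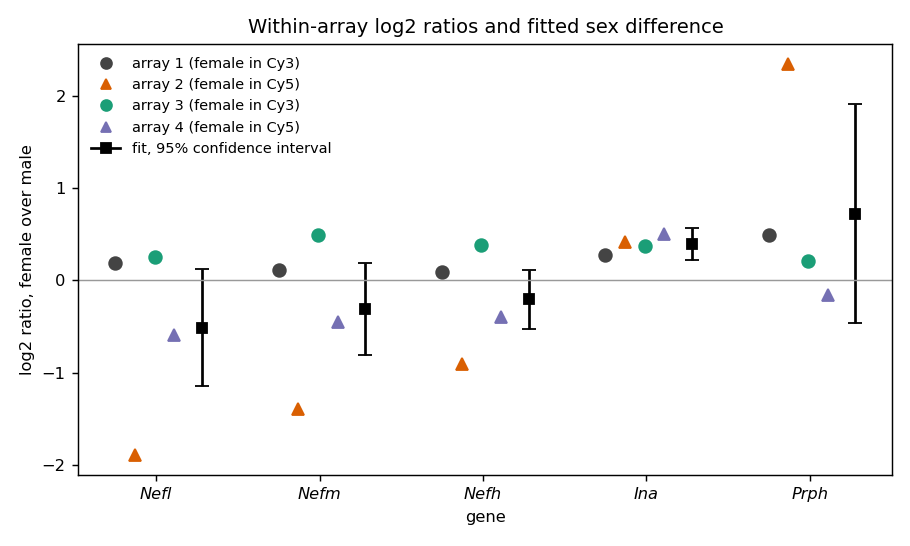
Within-array log2 ratio of female over male for each gene, circles where the female was in Cy3 and triangles where she was in Cy5, with the fitted sex difference and its 95% confidence interval as a black square. Only the Ina interval, 0.22 to 0.57, lies wholly on 1 side of 0; array 2 gives the lowest ratio for Nefl, Nefm and Nefh and the highest, 2.35, for Prph.

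Prph, which encodes peripherin, had a fitted ratio above 0. Its log2 level was 11.57, 11.70, 11.50 and 11.57 in females, against 11.08, 9.36, 11.29 and 11.74 in males. Above local background the intensity was 4098, 1729, 4510 and 1569 units in females, against 1778, 859, 1670 and 4992 units in males. The females were close together, at 11.59 ± 0.17 after dye correction, while males averaged 10.87 ± 0.99 (SD, n = 4 each). Male 2 was lowest and male 4 was the highest of all 8 animals.

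The array ratios of Prph were 0.49, 2.35, 0.21 and -0.16, and the fitted log2 ratio was 0.72 ± 0.44 (SE, 95% confidence interval -0.46 to 1.91, adjusted p 0.576 in limma). The fold of 1.65 was the largest of the 5 and rested on male 2. Without array 2 the ratio was 0.09 ± 0.09, and with male 2 alone left out it was 0.19 ± 0.14 with an unadjusted p of 0.227. The dye-corrected levels were then 11.49, 11.78, 11.42 and 11.65 in females, against 11.16, 11.37 and 11.66 in males 1, 3 and 4. Without array 4 the ratio was 1.35 ± 0.09, with an adjusted p of 0.0309 in limma. There too array 2 alone stands for its dye orientation, and the SE, against 0.44 with 4 arrays, leaves out the spread that male 2 adds. In that fit 2 of 5 members passed, against 6.78% of all probes.

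**Figure D3:**
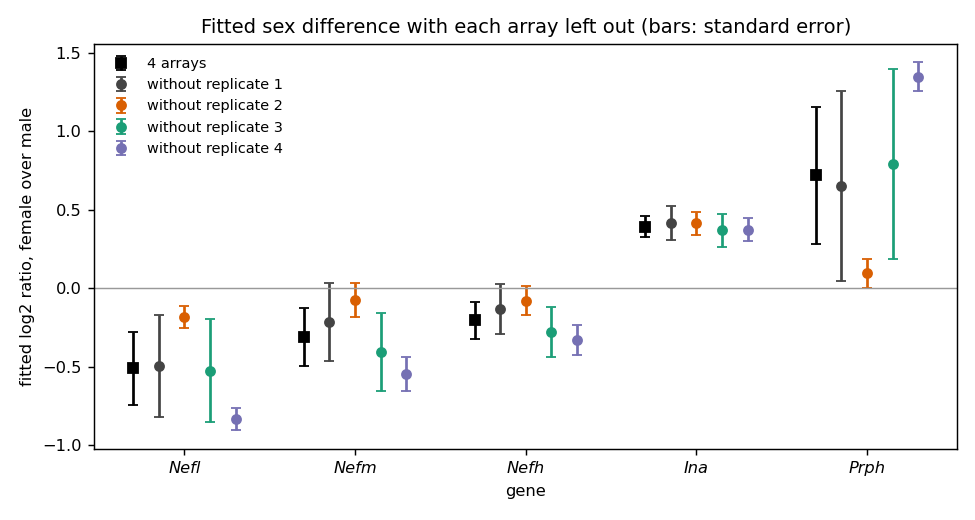
Fitted log2 ratio of female over male with all 4 arrays and with each replicate, and so each array, left out. Bars are the standard error of each fit, moderated by limma over all probes. The residual comes from arrays 1 and 3 alone without replicate 2 or 4, and from arrays 2 and 4 without replicate 1 or 3. Ina stays between 0.37 and 0.42, while Prph runs between 0.09 without replicate 2 and 1.35 without replicate 4.

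The 10 spots of the Nefm probe give a measure of error within an array. Their log2 ratios of female over male ran between -0.20 and 0.81 on array 1, with a mean of 0.11 and an SD of 0.38. On array 2 they lay between -1.88 and -1.04, on array 3 between 0.16 and 1.00, and on array 4 between -0.93 and -0.12. The spot SD was 0.25 to 0.38 per array, close to the median of 0.26 over the 1302 probes with at least 10 spots. On array 1 the spots thus fell on both sides of 0, and on the other arrays all 10 had 1 sign.

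The spread followed the position of the spot. The 3 Nefm spots in rows up to 120 had a mean log2 ratio of Cy3 over Cy5 of 0.64, 1.80, 0.84 and 0.78 on arrays 1 to 4, against -0.12, 1.21, 0.34 and 0.31 for the 7 spots in rows from 200 of 532. Over all such repeated probes, spots in the first rows deviated from their probe's mean by a median of 0.38 to 0.51 towards Cy3, and those in the later rows by -0.16 to -0.12. In the scanner software's log ratios, which are detrended over the array, the Nefm spot SD was only 0.03 to 0.13. Their array means were 0.00, -1.36, 0.49 and -0.39 on arrays 1 to 4.

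The other genes rest on 1 spot each, so no such average exists for them. Nefl lies in row 173, Prph in row 198, Nefh in row 295 and Ina in row 438. The scanner software's log2 ratios for Ina were 0.42, 0.22, 0.56 and 0.28 on arrays 1 to 4, again above 0 on all of them. For Nefl they were -0.07, -1.83, 0.13 and -0.38, so that the sign of array 1 differed from that after loess. Fitted on those ratios, the sex difference was -0.54 for Nefl, -0.32 for Nefm, -0.25 for Nefh, 0.37 for Ina and 0.77 for Prph.

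**Figure D4:**
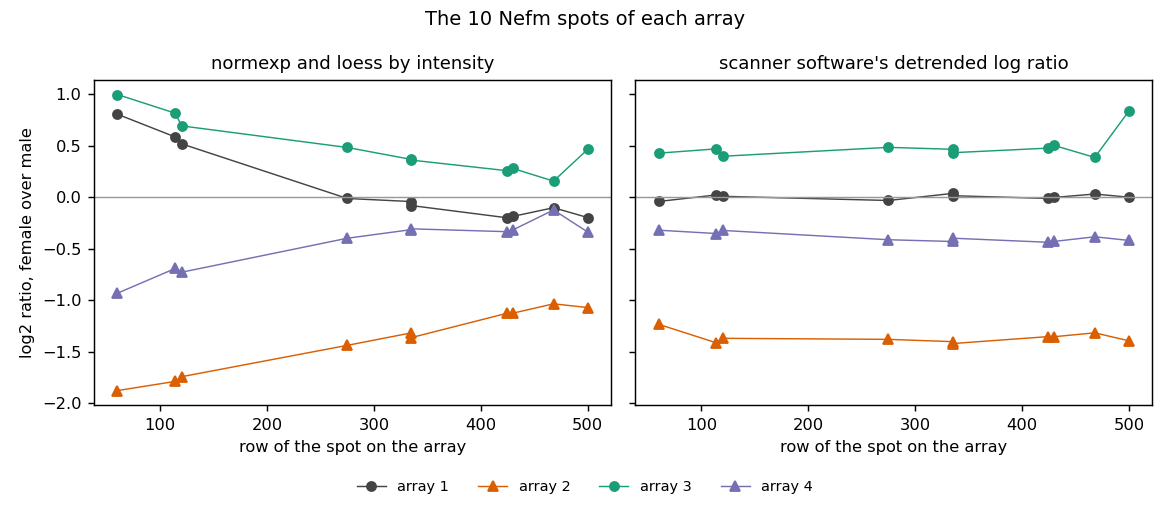
Log2 ratio of female over male for each of the 10 Nefm spots against the row of the spot, after normexp and loess (left) and as the scanner software's detrended log ratio (right). In the left panel the first 3 spots lie further towards Cy3 on every array, above the others where the female is in Cy3 (circles) and below them where she is in Cy5 (triangles), and in the right panel the spots of an array lie closer together.

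Across the 8 animals the levels of the neurofilament genes went together and against Prph, with male 2 at the end of each relation. Over 10 pairs of genes, after dye correction, 3 passed by Pearson's r with two-sided exact permutation p adjusted over the pairs, and 0 passed by Spearman's rho. The permutation treats the 8 animals as exchangeable, although each array holds 2 of them and the dye effect was estimated from the same levels. Nefl and Nefm had an r of 0.948 (exact p 0.00156, adjusted 0.0125) and a rho of 0.881 (adjusted 0.0724). Leaving out female 1 and male 2, the animals farthest from the median of Nefl, gave an r of 0.606, and leaving out male 2 alone gave 0.511. Nefl and Prph had an r of -0.958 (exact p 0.0025, adjusted 0.0125) and a rho of -0.81 (adjusted 0.0931). Their r was -0.774 without female 1 and male 2, and -0.14 without male 2 alone. The values without female 1 and male 2, here and below, keep the dye effect estimated with male 2 included. Male 2 thus still enters them, whereas leaving it out alone meant estimating the dye effect again.

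Nefm and Nefh had an r of 0.858 (exact p 0.00744, adjusted 0.0248) and a rho of 0.786 (adjusted 0.0931). Their r was 0.282 without female 1 and male 2, and 0.694 with a rho of 0.679 without male 2 alone (exact p of r 0.0867, adjusted 0.581). Without male 2, 0 of the 10 pairs passed over 7 animals. Nefl and Nefh reached an r of 0.746 (exact p 0.0332, adjusted 0.0664), and 0.178 without male 2. Nefm and Prph stood at -0.859 (exact p 0.0237, adjusted 0.0592) and Nefh and Prph at -0.631 (exact p 0.098, adjusted 0.163). Without male 2 these 2 pairs turned to 0.414 and 0.468. The 4 pairs with Ina had an r of -0.0365 with Nefl, 0.0917 with Nefm, 0.0192 with Nefh and 0.104 with Prph, each with an adjusted permutation p of 0.963. With the mean of each array removed too, r was 0.964 for Nefl and Nefm and 0.992 for Nefm and Nefh. It was -0.987 for Nefl and Prph. These values include male 2. Removing the array mean leaves the female and male of an array at equal distances on opposite sides of 0. Such an r rests on a single dye-corrected ratio per array, from 4 arrays, and not on separate animals. It is therefore no independent check of the r over the animals.

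The genes most like each member by Pearson's r over the 8 animals, among 14487 genes, are given as a description. Levels share arrays and male 2, so many genes reach a high r. For Nefl 934 genes had an r above 0.9, and Nefm ranked 432. The nearest were Rasal1, a Ras GTPase-activating protein, at 0.998, Lrp12, of the LDL receptor family, at 0.998 and the translation initiation factor Eif1 at 0.996. For Nefm they were Iqsec3, an exchange factor for Arf GTPases, at 0.999, Trim31, a ubiquitin ligase, at 0.994 and Jph3, a junctophilin, at 0.993. For Nefh they were Pcdhga1, a protocadherin, at 0.987, Pebp1, an inhibitor of Raf kinase, at 0.979 and Nsdhl, an enzyme of cholesterol synthesis, at 0.977.

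For Prph they were the proton-gated channel Asic1 at 0.996, the keratin Krt18 at 0.995 and the adhesion molecule Dscam at 0.993. Without male 2 these 3 genes stood at 0.949, 0.924 and 0.904. For Ina they were Mpi, which converts mannose phosphate, at 0.988, Plekhn1 at 0.982 and Snapc1, which serves transcription of small nuclear RNAs, at 0.974. The r of these 3 was 0.992, 0.984 and 0.975 without male 2. Their own fitted log2 ratios of female over male were 0.10 for Mpi, 0.34 for Plekhn1 and 0.21 for Snapc1.

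Markers of brain region moved with the neurofilament genes and Prph in male 2, with median deviations of 1.72 and -1.82. Cell type lists moved less there, at 0.24 for pan-neuronal, 0.26 for oligodendrocyte and myelin, -0.12 for astrocyte and -0.08 for microglia markers. The list of cholinergic, catecholaminergic and peripheral neuron markers was at -0.53. Of 12 listed markers of cortex, hippocampus and striatum 11 were on the array and 8 were tested. Their summed normalized intensity was 11240 to 18820 in females and 11250 to 41780 in males, with male 2 at the top. The fitted ratio was below 0 for 6 of them, with a median of -0.45, against -0.03 without array 2. Neurod6, a transcription factor of pyramidal neurons, was at -0.96 ± 0.33 (unadjusted p 0.0389), Neurod2 at -1.19 ± 0.55 and Emx1 at -0.43 ± 0.34 (SE). Without array 2, Neurod6 was at -0.49 ± 0.07 (unadjusted p 0.00208) and Neurod2 at -0.39 ± 0.08 (unadjusted p 0.00881), and 2 of the 8 were lower at an unadjusted p under 0.05, against 1 with all arrays. Over the hypothalamic markers the sum was 176800 to 365500 in females and 34060 to 389100 in males, with male 2 at the bottom. All 13 had a ratio above 0, with a median of 0.63, against 7 of 13 above 0 and a median of 0.00 without array 2. With all arrays Crh, which encodes the releasing hormone of the stress axis, was the 1 with an unadjusted p under 0.05, at 0.86 ± 0.20. Its array ratios were 1.40, 0.72, 1.70 and -0.36 on arrays 1 to 4, and without array 2 it was at 0.59 ± 0.09. Other markers of the list went the other way without array 2, with Hcrt at -0.76 ± 0.07 and Pmch at -0.28 ± 0.07. With all arrays Hcrt was at 0.06 and Pmch at 1.04. Hcrt and Pmch were named after their values were seen. Avp was at 1.30 ± 0.80, Oxt at 1.11 ± 0.67 and Pomc at 0.63 ± 0.55 (SE). The part of these markers in the values of Nefl, Nefm, Nefh and Prph was not tested. With male 2 out, the neurofilament ratios lay between -0.14 and -0.02, as given above.

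Over all 14603 genes tested, 731 were higher and 513 lower in females at an unadjusted p under 0.05, the median ratio was 0.02, and the adjusted p of limma called 0 genes of any list. Of 12 pan-neuronal markers 3 had a ratio above 0, with a median of -0.14, against -0.02 without array 2. In this list 0 were higher and 2 lower at an unadjusted p under 0.05. These were Thy1, a surface protein of neurons, at -0.51 ± 0.10 and the RNA-binding protein Elavl3 at -0.34 ± 0.11 (SE). These 2 genes, and the others below that are named for their unadjusted p, were picked after their values were seen. The summed intensity of the list was 231200 to 264200 in females and 260100 to 290400 in males. Rbfox3, a splicing factor of neurons, was at 0.05 ± 0.10, and the synaptic proteins Snap25 and Syt1 were at -0.82 ± 0.40 and -0.22 ± 0.15 (SE). Of 8 measured markers of cholinergic, catecholaminergic and peripheral neurons, the class in which peripherin is best known, all 8 had a ratio above 0 and 0 passed at an unadjusted p under 0.05. Their median was 0.24, against 0.10 without array 2, and the summed intensity was 16680 to 21290 in females and 9279 to 20340 in males. Chat, which makes acetylcholine, was at 0.21 ± 0.09, its choline transporter Slc5a7 at 0.23 ± 0.34 and the vesicular transporter Slc18a3 at 0.14 ± 0.15 (SE).

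**Figure D5:**
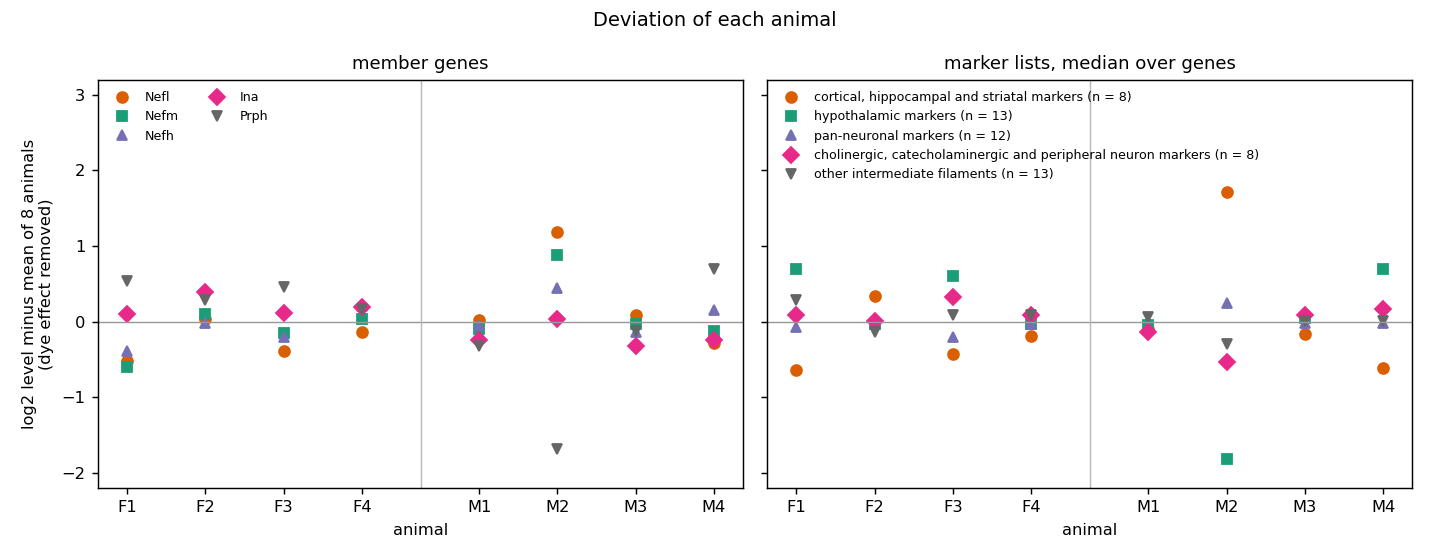
Deviation of each animal from the mean of the 8 animals on the log2 scale after dye correction, for the 5 genes (left) and for the median of each marker list (right), females F1 to F4 left of males M1 to M4. In male 2, Nefl, Nefm and Nefh lie above 0 with the markers of cortex, hippocampus and striatum (1.72), and Prph lies below 0 with the hypothalamic markers (-1.82).

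Glial markers were counted in the same way. Of 10 oligodendrocyte and myelin markers 0 had a ratio above 0, with a median of -0.30, and -0.22 without array 2. Mbp, a main protein of myelin, was at -0.25 ± 0.11 and Mog at -0.66 ± 0.37 (SE). Ermn, at -0.26 ± 0.07 (SE), had an unadjusted p of 0.0153. The summed intensity of the list was 160300 to 178900 in females and 178400 to 221200 in males. Of 8 astrocyte markers 4 had a ratio above 0, with 1 higher and 0 lower at an unadjusted p under 0.05, the transcription factor Sox9 at 0.20 ± 0.07. The water channel Aqp4 was at -0.22 ± 0.13 and the glutamate transporters Slc1a2 and Slc1a3 at -0.29 ± 0.18 and 0.01 ± 0.08 (SE). Of 8 microglia markers 4 were above 0, with 0 higher and 1 lower at that level, the purine receptor P2ry12 at -0.33 ± 0.11. Aif1 was at 0.35 ± 0.20, Cx3cr1 at -0.03 ± 0.15 and Csf1r, measured on 3 arrays, at -0.35 ± 0.11 (SE).

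Of 13 other intermediate filament genes 10 had a ratio above 0, with a median of 0.15, and 0.13 without array 2, and 3 were higher and 1 lower at an unadjusted p under 0.05. Vim, the filament of glial progenitors and endothelium, was at 0.15 ± 0.15, Nes, of neural progenitors, at 0.29 ± 0.15 and Gfap, of astrocytes, at -0.39 ± 0.12 (SE, unadjusted p 0.0288). The ratio of Gfap was below 0 on all 4 arrays. The 3 higher genes were the keratin Krt19 at 0.82 ± 0.10, the muscle filament gene Des at 0.62 ± 0.16 and the nuclear lamina gene Lmna at 0.30 ± 0.10 (SE). Of these, Krt19 was above 0 on 4 of 4 arrays, while Des was at -0.50 on array 3 and Lmna at -0.10 on array 1.

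Genes that act on neurofilaments gave few values past an unadjusted p under 0.05. Of 13 measured linkers, motors and turnover factors 0 were higher and 1 lower, with 4 above 0 and a median of -0.05. The lower gene was Trim2, a ubiquitin ligase that binds the light chain in mice, at -0.87 ± 0.27, and -0.49 ± 0.08 without array 2 (SE). The crosslinkers Dst and Plec, which tie filaments to other structures, were at -0.14 ± 0.10 and 0.09 ± 0.09, and the kinesin Kif5a, a motor of neurofilament transport, at -0.10 ± 0.07 (SE). Of 13 measured kinases and phosphatases 0 were higher and 1 lower, with 1 above 0 and a median of -0.14, against -0.05 without array 2. The lower gene was Ppp2r2b, a regulatory subunit of protein phosphatase, at -0.37 ± 0.11 (SE), and -0.27 without array 2. The sign of its array ratios, 0.67, -1.40, 0.26 and -1.01, followed the dye. Its dye effect was 0.83 (adjusted p 0.0273 in limma), past the threshold as for 12.7% of all probes. In male 2 the median level of this list was 0.33 above the mean of the animals. The neurofilament kinase Cdk5 was at -0.18 ± 0.08 and its activators Cdk5r1 and Cdk5r2 at -0.03 ± 0.06 and -0.08 ± 0.09 (SE).

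Of 16 axonal microtubule genes 9 were above 0, with a median of 0.01, and 1 was higher and 1 lower at an unadjusted p under 0.05. The microtubule-associated proteins Mapt and Map1b were at 0.13 ± 0.10 and -0.08 ± 0.20, and Map1a at -0.40 ± 0.09 (SE, unadjusted p 0.00968). The higher gene was Dcx, which encodes doublecortin of young neurons, at 0.30 ± 0.07 (SE), and Map1a was the lower one. For Dcx the array ratios were 1.21, -0.46, 1.05 and -0.62, so their sign followed the dye. The dye effect of Dcx was 0.83 (adjusted p 0.0218 in limma), past the threshold as for 12.7% of all probes. The array ratios of Map1a were -0.38, -0.42, -0.64 and -0.14, below 0 on all 4 arrays.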

How the data were processed

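Hypothalamic RNA of 4 female and 4 male rats was hybridized to 4 two-colour arrays of 1 slide. Spots were quantified in Agilent Feature Extraction 10.7.3.1, as the submitters' processing notes say. Signals of spots and of local background are intensity values before normalization, per the file headers. The deposited log ratio is a log10 value, red over green, taken after the software subtracted background, detrended and balanced the dyes. The authors' deposited value table is on a log2 scale, equal within 0.01 to log2 of the difference between a spot's median signal and its median local background after a constant shift of each column, for 100% of the values of each sample. Each of its columns has a median of 0. Columns of other samples numbered 0. Dyes came from the labels.

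Background was corrected by normexp (mean signal, median local background, offset 50). Loess by intensity followed on each array, and the 1377 controls among 44254 features had weight 0. This used limma 3.58.1 in R 4.3.3 and data.table (1.17.8). Spots marked as outliers, 931 to 1096 on an array, were dropped before the spots of each probe were averaged. The filter on dim probes asked that more than 0.5 of a probe's spots be well above background in every sample of at least 1 sex. It passed 22004 probes, of which 21995 could be fitted. Within-array log2 ratios, female over male, entered limma's lmFit and eBayes with a sex term and a gene-specific dye term, with Benjamini-Hochberg adjustment over all probes and a threshold of 0.05. Levels of single animals came from their own channel after Aquantile normalization between arrays. A gene of a list was represented by its brightest probe. Accessions matched to RefSeq named 17328 probes, and 5371 kept the name in the array files. Probe positions are those of the files, on rn4. The limma fit was tested on simulated log ratios, and the permutation test on a series with a known answer. The steps before the fit were not tested in this way. Correlations used two-sided exact permutation tests in Python 3.11.15 with numpy 2.4.6 and pandas 2.3.3, and figures matplotlib 3.10.9.

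Each female is paired with the male of the same replicate number because both share an array. Both files of a pair hold identical spot values for the 4 arrays, and the array is the block of the fit because each ratio lies within 1 array. The labels list the animals as separate samples, with nothing further on their origin.

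Named were all 5 members, the first 3 tested genes of each list in list order, and the 3 genes with the highest correlation to each member; 1 gene of these is not reported here. The members and lists were chosen with earlier results of these data known, and so were the tests. Alternatives were no dye term, separate channels, other background corrections and normalizations, the scanner's log ratio, the authors' table, other filters, an intensity trend, and leaving out each replicate. Leaving out male 2 alone, which needed separate channels without the array as block, was added after seeing the data.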

Additional observations from a re-analysis of the deposited data

Results flagged for a closer look

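In 3 of 32 groups of 4 animals tested, 1 animal lay apart from the others by more than Dixon's 95% critical value for the gap divided by the range. Chance gives such a mark in about 5% of groups, and the groups share animals. All 3 were male 2. Its dye-corrected log2 level of Nefm was 14.07, the highest of the males, with a gap over range of 0.902. Its median level over the other intermediate filament genes was -0.29 relative to the mean of the animals, the lowest of the males (0.846), and over the pan-neuronal markers 0.24, the highest of the males (0.837).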

How the results depend on the processing

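Over 17 alternatives the fitted log2 ratio of female over male kept its sign for all 5 genes. It ran between 0.34 and 0.49 for Ina, 0.09 and 1.35 for Prph, -0.84 and -0.14 for Nefl, -0.55 and -0.02 for Nefm, and -0.37 and -0.07 for Nefh. In some alternatives the ratio could not move, so the kept sign says nothing there. These were no dye term, separate channels of all animals and the other filters on dim probes. Outlier spots kept, the mean of all probes of a gene and the intensity trend also belong here. They returned the ratios of the main fit and could change only the SE and p. Of 85 values, 83 stayed on their side of the threshold, and the cause of the changes was not tested. The exceptions were Nefl (-0.84) and Prph (1.35) without replicate 4, when 2 genes and 1479 probes passed. In that fit array 2 alone stands for its dye orientation, so its deviation cannot enter the residual. With each replicate left out in turn the ratio ran between -0.84 and -0.18 for Nefl, -0.55 and -0.08 for Nefm, -0.33 and -0.08 for Nefh, 0.37 and 0.42 for Ina, and 0.0944 and 1.35 for Prph, with 0 to 2 genes and 0 to 1479 probes past the threshold. The fit of separate channels with no replicate block gave the same ratios, -0.51, -0.31, -0.20, 0.39 and 0.72, with adjusted p of 0.632 to 0.741 in limma, and changed no call of a sex difference. By unadjusted p, Nefl was under 0.05 with median centring (-0.58, p 0.0444) and in the authors' deposited table (-0.63, p 0.0407). With median centring 371 of all probes were higher and 771 lower in females by that p, and 239 were higher and 1500 lower in the values of the authors (median over all probes -0.06), against 1096 and 774 after loess.

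The dye effect moved more. With each replicate left out it ran between 0.40 and 1.05 for Nefl, 0.37 and 0.84 for Nefm, 0.32 and 0.57 for Nefh, -0.09 and -0.04 for Ina, and -0.998 and 0.25 for Prph, with 0 to 4 genes past the threshold; the 4 came without replicate 4, where 29.3% of all probes passed. Median centring gave 1.07, 0.90 and 0.78 for Nefl, Nefm and Nefh, all 3 past it, as for 20.6% of all probes, and turned Ina to 0.24. The scanner's log ratio turned Ina to 0.12. Without replicate 2 Prph turned to 0.25, and without male 2 alone to 0.16, with Nefl at 0.36 and 1 gene past it, as for 21.4% of all probes.

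Correlations changed most. Female 1 and male 2 were the 2 animals farthest from the median of a pair's first gene, except for Ina and Prph. Without them r was 0.606 for Nefl and Nefm, -0.0897 for Nefl and Nefh and -0.774 for Nefl and Prph. It was 0.282 for Nefm and Nefh and 0.276 for Nefh and Prph. These values keep the dye effect estimated with male 2 included, so male 2 still enters them. The values without male 2 alone use a dye effect estimated again without it. For Ina and Prph female 2 and male 3 were left out and male 2 stayed, which gave -0.0188, against 0.648 without male 2. Without male 2 it was 0.511 for Nefl and Nefm, -0.14 for Nefl and Prph, 0.694 for Nefm and Nefh, 0.414 for Nefm and Prph, -0.0445 for Nefh and Ina, and 0.468 for Nefh and Prph. With the array mean also removed it was 0.945, -0.685 and -0.987 for Nefl with Nefh, Ina and Prph, 0.992, -0.574 and -0.978 for Nefm with Nefh, Ina and Prph, -0.623 and -0.948 for Nefh with Ina and Prph, and 0.561 for Ina and Prph. Values with the array mean removed rest on a single ratio per array, since the female and male of an array then mirror each other. The number of arrays limits all values. Signals of the 5 probes lay far above background.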
